A study of Homo sapiens with 2 samples.

Results

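The genes described here encode the subunits of the mitochondrial oxidative phosphorylation system. They were chosen by symbol, as the genes named NDUFA, NDUFB, NDUFC, NDUFS, NDUFV, SDH, UQCR, COX4 to COX8 or ATP5, and 74 of the 19775 genes on the arrays met this rule. Of these, 32 belonged to complex I, 3 to complex II, 6 to complex III, 14 to complex IV and 19 to complex V. The rule took in the ATP synthase inhibitor ATP5IF1 and the pseudogene ATP5MC2P1, and its spelling passed over COX4I1, COX4I2, CYC1, NDUFAB1, COXFA4 and COXFA4L2, which are given separately.

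HCC4006ER cells were derived from HCC4006 by exposure to erlotinib, an EGFR inhibitor, for 3 months from 3 nM up to 4 μM. HCC4006 is an erlotinib-sensitive human NSCLC cell line, and both lines carry an EGFR exon 19 deletion and were grown for 48 hours without further treatment. HCC4006ER was used as a bulk resistant population, and its label gives an EMT phenotype. Total RNA from 3 preparations per cell line was mixed and hybridized to 1 Affymetrix HG-U133 array, so there were no replicates and no test, and differences are given as values.

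Complex I (NADH dehydrogenase), complex III (the cytochrome bc1 complex) and complex IV (cytochrome c oxidase) pass electrons to oxygen and pump protons across the inner mitochondrial membrane. Complex II (succinate dehydrogenase) feeds electrons from the TCA cycle, and complex V (ATP synthase) uses the proton gradient to make ATP. Most subunits are encoded in the nucleus and a few in mitochondrial DNA. The transcription factors NRF1 and GABP are known activators of many of the nuclear genes.

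A signal counted as above background when it exceeded 91.6 on the array labelled HCC4006ER (the ER array) or 96.2 on the array labelled HCC4006 (the parental array). These levels are the 95th percentile of 127 probe sets for olfactory receptors and bitter taste receptors, sensory genes used here as a measure of signal without expression. The log2 fold is the ER signal over the parental signal, and 1.5-fold is the threshold of the methods. As a measure of disagreement, the log2 fold varied with a pooled SD of 0.27 between probe sets of the same gene over 5264 genes, which leaves out variation between arrays and cultures. The ratio of the 3′ to the 5′ control signal was 0.890 on the ER array and 0.933 on the parental array for GAPDH, and 1.09 on both for ACTB. All 7 epithelial markers checked were above background on both arrays. Of 6 fibroblast markers only COL1A1 was, and LUM, DCN and COL3A1 were not. Against the EMT label, neither array had ZEB1 above background by its brightest probe set, at 53.1 on the ER array and 42.5 on the parental array. CDH1 read 11041 on the ER array and 10469 on the parental array. The authors reported the reverse in HCC4006ER cells, from their array, by RT-PCR and by protein blot: ZEB1 considerably higher and CDH1 reduced or lost. The probe sets read here did not show this, and the reason was not tested. VIM, CDH2 and FN1 were 1.53-fold, 2.05-fold and 1.66-fold higher on the ER array. Both names stand for what the labels say.

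Of the 63 genes with a RefSeq promoter sequence (assembly GRCh38.p14, 250 bases before to 50 after the start site), 16 held the NRF1 motif, written here as GCGCA, any base and then GCGC, on either strand (25.4%). The same motif occurred in 6.98% of 27305 promoters of all genes and in 13.4% of the 9761 promoters of genes above background on at least 1 of these arrays. The GABP motif ACCGGAAG occurred in 3 of the 63 (4.76%), against 4.96% of the same 9761 promoters. The following stretches, each wholly before the start site and written 5′ to 3′ on the strand of the gene, show the NRF1 match in capitals in a subunit of complexes I, II, III and V. They are shown because this motif, of the 2 searched, was the one found in a larger share of the subunit genes than of genes above background on at least 1 array, a feature that the choice by symbol did not use.
NDUFB4 (chr3:120596162-120596201, plus strand): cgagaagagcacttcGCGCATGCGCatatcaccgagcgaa
SDHD (chr11:112086748-112086787, plus strand): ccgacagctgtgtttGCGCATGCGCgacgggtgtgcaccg
UQCRC1 (chr3:48609669-48609708, minus strand): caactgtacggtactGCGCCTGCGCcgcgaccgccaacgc
ATP5ME (chr4:674471-674510, minus strand): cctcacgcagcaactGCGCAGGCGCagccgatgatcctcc
The matches ended 149 bases before the start site in NDUFB4, 100 in SDHD, 37 in UQCRC1 and 209 in ATP5ME. In UQCRC1 the match reads on the other strand, and in NDUFB4 and SDHD on both. The median log2 fold was -0.05 over 15 genes above background with the NRF1 motif and -0.09 over 45 without it, and the difference was not tested.

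The subunit genes differed little between the arrays. Above background on both arrays were 69 of the 74. Past 1.5-fold, 0 of these were higher and 1 was lower on the ER array, while 68 lay within it. Among the 10849 genes above background on both arrays, 7.71% were higher by this measure and 10.2% lower. Among the 11896 above it on at least 1 array, a group that takes in genes seen on a single array, the shares were 9.27% and 13.3%. Since the share past 1.5-fold in either direction was 17.9% over genes above background on both arrays and 12.0% over bright ones, the count was also set against the 5357 genes with a mean signal over 1000 (a limit chosen after the values were seen), of which 6.25% were higher and 5.77% lower. Among the 67 subunit genes over that signal, 0 were higher and 1 was lower. The log2 fold lay within the SD of 0.27 between probe sets for 54 of these 67 (80.6%) and for 60.7% of all genes over that signal. These groups share only the lower limit of 1000 and were not matched for signal above it. Whether signal level accounts for the narrower spread was not tested. Over all 74, values under background included, 2 were higher and 3 lower past 1.5-fold, against 13.0% and 23.0% of all 19775 genes. The median log2 fold of the 69 was -0.07, and that of all genes above background on both arrays was -0.03.

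**Figure D1:**
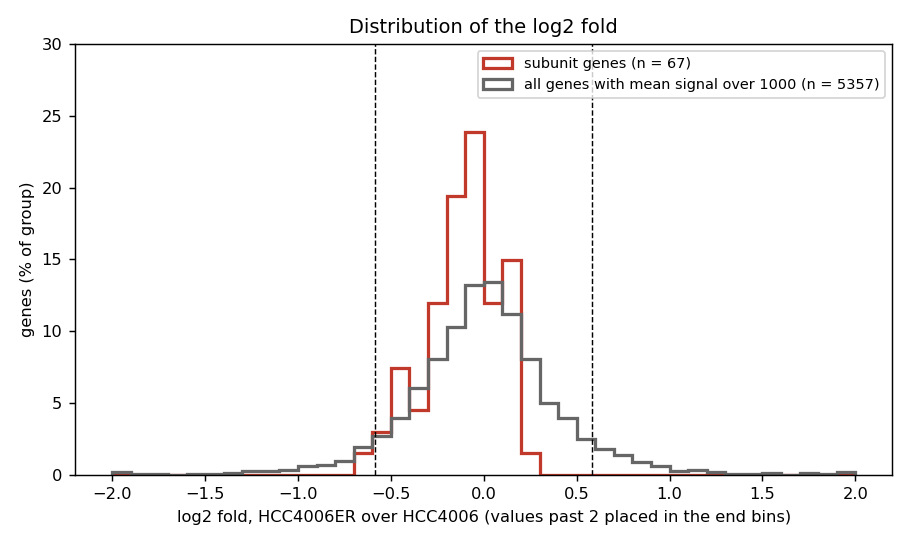
Distribution of the log2 fold, HCC4006ER over HCC4006, in steps of 0.1 on the x axis, with the share of each group in percent on the y axis. The red line is the 67 subunit genes with a mean signal over 1000, the grey line all 5357 genes over it, and the dashed lines mark 1.5-fold; the subunit genes lie between -0.64 and 0.29.

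More subunit genes were slightly lower than slightly higher, 48 against 21 of 69. Lower values made up 69.6% of the subunit genes, 53.3% of all genes above background on both arrays and 54.0% of those above it on at least 1. Where the mean signal was over 1000 the shares were 71.6% of the subunit genes and 49.8% of all genes. The count below 0 depends on where 0 is set. Bringing both arrays to an equal median signal moved every log2 fold up by 0.14 and left 24 of 69 lower (34.8%), against 38.4% of all genes above background on both arrays. The medians moved together, to 0.06 for the subunit genes and 0.11 for all genes above background on both arrays. With quantile normalization 48 were lower. On the deposited scale 12 of the 69 were lower and 1 was higher by more than the SD between probe sets. Among the 10849 genes above background on both arrays, 2879 were lower and 2273 higher by more than it. These counts also depend on where 0 is set. At equal array medians NDUFA5 came within the SD, at -0.23, and SDHD passed it on the higher side, at 0.28.

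**Figure D2:**
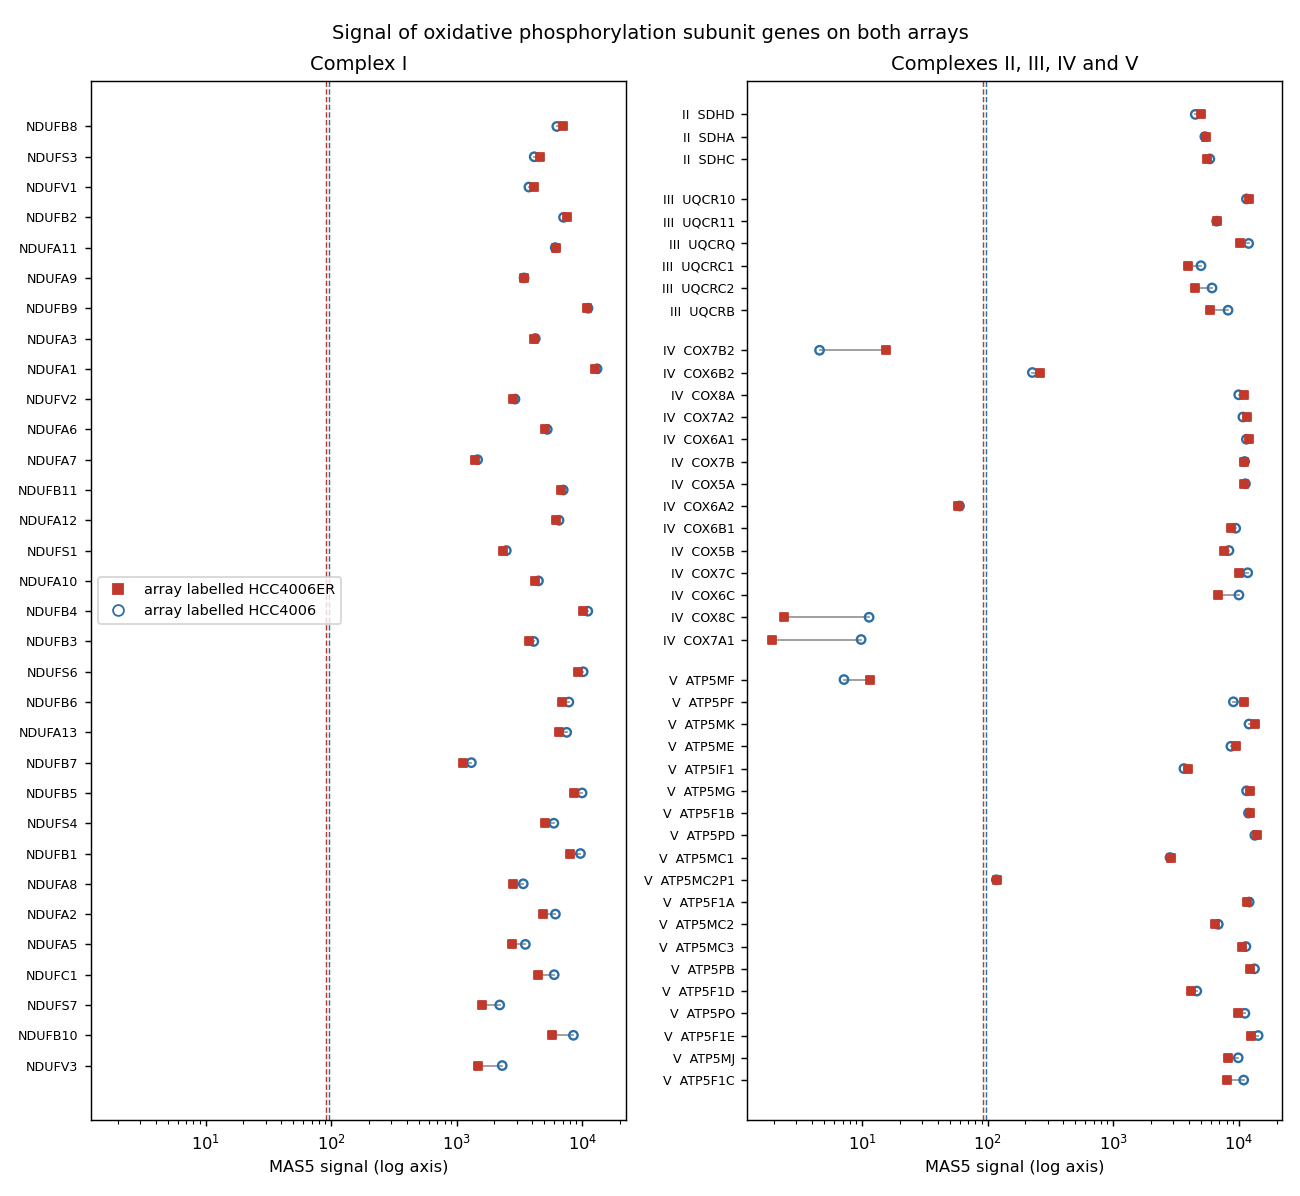
MAS5 signal of each of the 74 genes on a log axis, with red squares for the ER array and open blue circles for the parental array. Genes are ordered by log2 fold within each complex, dashed lines mark the background level of the ER array (91.6) and of the parental array (96.2), and the 5 genes left of the lines were not above background.

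In complex I all 32 genes were above background, and 27 were lower (84.4%) and 5 higher on the ER array. Of all genes above background on both arrays 53.3% were lower, and 38.4% at equal array medians. The median log2 fold of the 32 was -0.11. It became 0.03 at equal array medians, so the count of lower genes also depends on where 0 is set. NDUFV3, an accessory subunit of the NADH-oxidizing arm, read 1475 on the ER array and 2305 on the parental array. It was 1.56-fold lower and, by the probe set used for each gene, the only one of the 74 genes above background past 1.5-fold. A second NDUFV3 probe set read 329 on the ER array and 460 on the parental array, with a log2 fold of -0.48. At equal array medians the first NDUFV3 probe set had a log2 fold of -0.51 and did not pass 1.5-fold. NDUFAB1, the mitochondrial acyl carrier protein and a complex I subunit outside the naming rule, read 10762 on the ER array and 14588 on the parental array, a log2 fold of -0.44.

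NDUFB10, an accessory subunit of the membrane arm, lay just within the threshold at 5696 on the ER array and 8506 on the parental array, 1.49-fold lower. Its other probe set differed less, with a log2 fold of -0.14. NDUFS7, a core subunit that carries an iron-sulfur cluster next to the ubiquinone site, read 1595 on the ER array and 2201 on the parental array, a log2 fold of -0.46. NDUFC1 read 4417 on the ER array and 5979 on the parental array (-0.44) and NDUFA5 2738 on the ER array and 3524 on the parental array (-0.36). All of these were lower by more than the SD between probe sets.

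At the other end NDUFB8, a membrane arm subunit, read 7060 on the ER array and 6273 on the parental array, a log2 fold of 0.17. The core subunits NDUFS3 and the NADH-binding NDUFV1 had log2 folds of 0.16 and 0.14. These values were within the SD between probe sets. A second NDUFB8 probe set was past it, at 5564 on the ER array and 3999 on the parental array (0.48). A dim other NDUFB8 probe set read 116 on the ER array and 138 on the parental array (-0.26). The 5 core subunits had a median log2 fold of -0.06, with 3 lower and 2 higher, and the 27 accessory subunits -0.12, with 24 lower and 3 higher. These counts are on the deposited scale, where 53.3% of all genes above background on both arrays were lower.

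The 3 complex II genes were nearly equal. SDHA, the flavoprotein that oxidizes succinate, read 5514 on the ER array and 5374 on the parental array, a log2 fold of 0.04. The membrane anchors SDHC and SDHD had log2 folds of -0.07 (signals 5615 on the ER array and 5882 on the parental array) and 0.14 (4984 on the ER array and 4508 on the parental array). SDHC had 6 probe sets above background, and all were lower, by log2 folds between -0.21 and -0.07.

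Complex III had the lowest median, -0.29 over 6 genes, and it stayed below 0, at -0.15, at equal array medians. The difference lay in 4 of the 6. UQCRB, which lines the ubiquinone site, read 5886 on the ER array and 8220 on the parental array, a log2 fold of -0.48. Its other probe sets above background were lower still, by 1.76-fold (4143 on the ER array and 7304 on the parental array) and 1.56-fold (306 on the ER array and 477 on the parental array). The core protein gene UQCRC2 read 4470 on the ER array and 6130 on the parental array, 1.37-fold lower, and 1.60-fold lower in its second probe set (3717 on the ER array and 5962 on the parental array).

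The partner core protein UQCRC1 read 3950 on the ER array and 5004 on the parental array, a log2 fold of -0.34 in its single probe set. UQCRQ, a small subunit, read 10157 on the ER array and 11998 on the parental array (-0.24). The small subunits UQCR10 and UQCR11 did not share this difference, at 12076 on the ER array and 11523 on the parental array (0.07) and at 6657 on the ER array and 6673 on the parental array (0.00). Dim second probe sets had log2 folds of 0.40 for UQCR10 and 0.70 for UQCR11. Cytochrome c1 (CYC1), a catalytic subunit of complex III outside the naming rule, read 5111 on the ER array and 7782 on the parental array, a log2 fold of -0.61. Of the 7 complex III genes with CYC1, 6 were lower, 4 of them by more than the SD between probe sets. Among the 10849 genes above background on both arrays 53.3% were lower, and 2879 by more than that SD. A list of 7 genes is too short to set these counts apart from those shares. At equal array medians UQCRC1 came within the SD, at -0.20, and UQCR11 rose to 0.13.

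Complex IV had 10 of 14 genes above background, 6 lower and 4 higher, with a median log2 fold of -0.03. COX6C, a small subunit, read 6791 on the ER array and 10035 on the parental array, 1.48-fold lower in its single probe set. COX7C followed at 10108 on the ER array and 11788 on the parental array (log2 fold -0.22). Of its other probe sets, 1 nearly as bright had a log2 fold of -0.19. A dimmer 1 was 1.65-fold lower, at 1306 on the ER array and 2149 on the parental array. The other 8 had log2 folds between -0.13 and 0.19.

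Several complex IV subunits have isoforms restricted to certain tissues, and the ubiquitous forms were the ones measured well above background. COX6A1 read 12181 on the ER array and 11510 on the parental array, and COX7A2 read 11673 on the ER array and 10790 on the parental array. Their heart and skeletal muscle counterparts COX6A2 (58.1 on the ER array and 59.7 on the parental array) and COX7A1 (1.91 on the ER array and 9.82 on the parental array) were not above background on either array. COX8A read 10973 on the ER array and 9996 on the parental array, and the testis forms COX8C (2.38 on the ER array and 11.4 on the parental array) and COX7B2 (15.5 on the ER array and 4.58 on the parental array) were not above background. The testis form COX6B2 was dim but above it, at 260 on the ER array and 227 on the parental array. Of the genes outside the naming rule, COX4I1 read 12560 on the ER array and 10718 on the parental array (log2 fold 0.23), COX4I2, an isoform known from lung, 165 on the ER array and 216 on the parental array (-0.39), and COXFA4, formerly NDUFA4, 7220 on the ER array and 9820 on the parental array (-0.44). COXFA4L2 was not above background, at 60.7 on the ER array and 16.2 on the parental array.

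In complex V, 18 of 19 genes were above background, 9 higher and 9 lower, with a median log2 fold of -0.01. ATP5F1C, the gamma subunit of the rotating central stalk, read 8063 on the ER array and 10952 on the parental array, 1.36-fold lower. Its probe sets above background agreed, with log2 folds of -0.44, -0.36 and -0.33. The catalytic beta subunit ATP5F1B, at 12357 on the ER array and 11963 on the parental array, and the alpha subunit ATP5F1A, at 11736 on the ER array and 12117 on the parental array, had log2 folds of 0.05 and -0.05. ATP5PF, coupling factor 6 of the peripheral stalk, was the subunit gene with the highest log2 fold above background, 0.29, at 11117 on the ER array and 9067 on the parental array. ATP5MJ, a small membrane subunit, had -0.26 and ATP5MK 0.16.

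The c-ring of ATP synthase is encoded by ATP5MC1, ATP5MC2 and ATP5MC3, whose proteins differ in their import sequences and are the same once processed. ATP5MC1 read 2873 on the ER array and 2835 on the parental array, ATP5MC2 6454 on the ER array and 6873 on the parental array, and ATP5MC3 10602 on the ER array and 11406 on the parental array. Their log2 folds of 0.02, -0.09 and -0.11 were all within the SD between probe sets. The inhibitor ATP5IF1, which blocks ATP hydrolysis when the proton gradient fails, read 3948 on the ER array and 3659 on the parental array (0.11), and its 3 probe sets were all higher. ATP5MF was read only by a probe set not above background (11.6 on the ER array and 7.17 on the parental array), so no fold is given for it.

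Of the 28 subunit genes with several probe sets above background on both arrays, 21 had the same direction in all of them. The pooled SD within these 28 was 0.23. In 6 genes the probe sets took opposite directions over a range larger than 0.27: COX5A, COX5B, ATP5F1D, NDUFS1, UQCR11 and NDUFB8. ATP5F1D, the delta subunit of the central stalk, read 4196 on the ER array and 4634 on the parental array in its brighter probe set and 1475 on the ER array and 1034 on the parental array in the other. NDUFS1, the large iron-sulfur subunit of complex I, had log2 folds of -0.09, -0.20 and 0.47. COX7B had the widest range, from -0.97 to -0.02, with the low value in a dim probe set (148 on the ER array and 291 on the parental array).

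**Figure D3:**
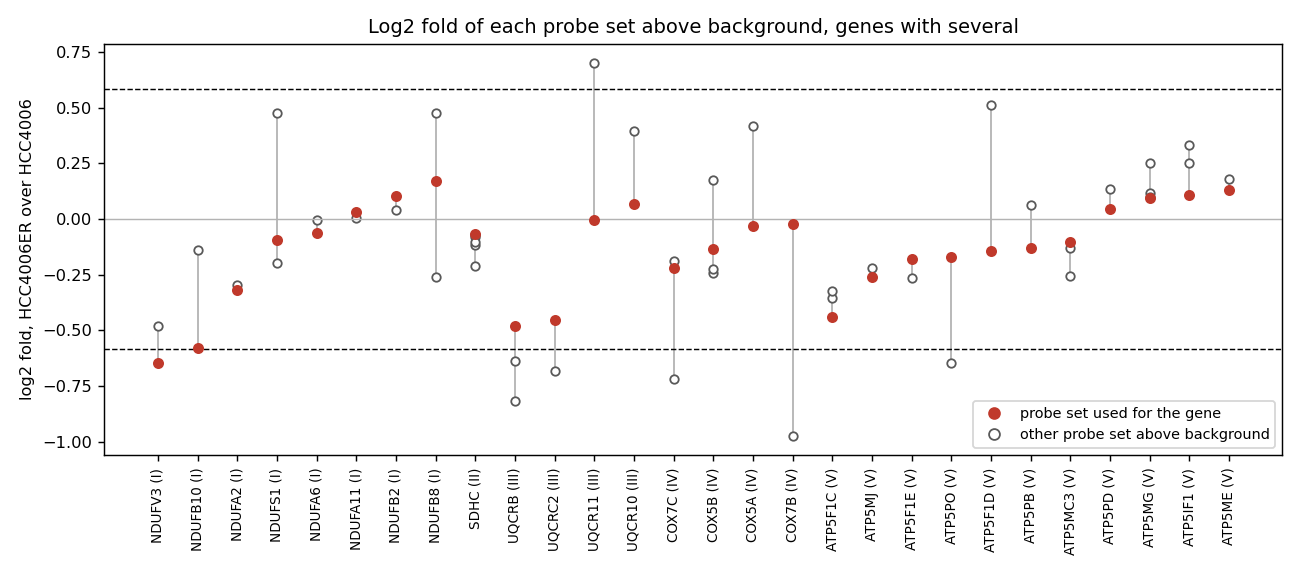
Log2 fold, HCC4006ER over HCC4006, of each probe set above background on both arrays, for the 28 subunit genes with several, grouped by complex on the x axis. Filled red points are the probe sets used for the genes, open points the others, and the dashed lines mark 1.5-fold; all 3 UQCRB and both UQCRC2 points lie at -0.46 or lower.

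The subunits encoded in mitochondrial DNA did not differ by 1.5-fold in any of the 7 genes measured, with log2 folds from -0.04 to 0.35. Past 1.5-fold in either direction were 17.9% of all genes above background on both arrays and 12.0% of those with a mean signal over 1000. A list of 7 genes is too short to set 0 apart from these shares. COX1, the catalytic subunit of complex IV, read 13331 on the ER array and 13622 on the parental array (-0.03), ND4 15733 on the ER array and 15798 on the parental array (-0.01) and ATP6 12553 on the ER array and 12931 on the parental array (-0.04). The highest value, 0.35, was that of ND6, at 452 on the ER array and 354 on the parental array.

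Assembly factors had log2 folds from -0.97 to 0.54. Of 54 above background, 5 were lower and 0 higher past 1.5-fold, and the median was -0.12. NUBPL, which delivers iron-sulfur clusters to complex I, read 538 on the ER array and 1051 on the parental array, a log2 fold of -0.97. COX20, a chaperone of the COX2 subunit, read 2093 on the ER array and 3704 on the parental array (-0.82). COA1 (-0.71), NDUFAF6 (-0.70) and UQCC4 (-0.64) were the others, and COX15, which makes heme A, had the highest value, 0.54 (2070 on the ER array and 1424 on the parental array). Among all genes above background on both arrays 10.2% were lower past 1.5-fold, so 5 of 54 was no more than the background.

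Among 15 genes of the electron carriers, 3 were lower and 2 higher past 1.5-fold, against 10.2% lower and 7.71% higher among all genes above background on both arrays. These were CYC1, COQ2 (903 on the ER array and 1711 on the parental array, -0.92) and PDSS2 (267 on the ER array and 418 on the parental array, -0.65) on the lower side, and COQ10A (878 on the ER array and 526 on the parental array, 0.74) and PDSS1 (1159 on the ER array and 761 on the parental array, 0.61) on the higher side. COQ2, PDSS1 and PDSS2 make coenzyme Q, and the 2 PDSS genes, which encode the subunits of a single enzyme, differed in opposite directions. Cytochrome c itself (CYCS) had a log2 fold of -0.16. Of 11 TCA cycle enzymes SUCLG2, a subunit of succinyl-CoA ligase, was lower past 1.5-fold (2187 on the ER array and 3421 on the parental array, -0.65), 10 lay within it, and IDH3G had the highest value, 0.42.

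Of the 12 regulators of mitochondrial biogenesis above background, 3 were higher past 1.5-fold and 0 were lower, against 7.71% higher and 10.2% lower among all genes above background on both arrays. GABPA, the DNA-binding subunit of GABP, read 776 on the ER array and 453 on the parental array, 1.71-fold higher. PPARGC1B, a coactivator, read 195 on the ER array and 116 on the parental array, 1.68-fold higher, and TFB1M, a mitochondrial rRNA methyltransferase, read 1508 on the ER array and 980 on the parental array, 1.54-fold higher. NRF1 read 390 on the ER array and 422 on the parental array (-0.11), TFAM, which packages mitochondrial DNA, 3282 on the ER array and 3402 on the parental array (-0.05), and TFB2M had the lowest value, -0.22. The coactivator PPARGC1A was not above background, at 35.1 on the ER array and 30.1 on the parental array.

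**Figure D4:**
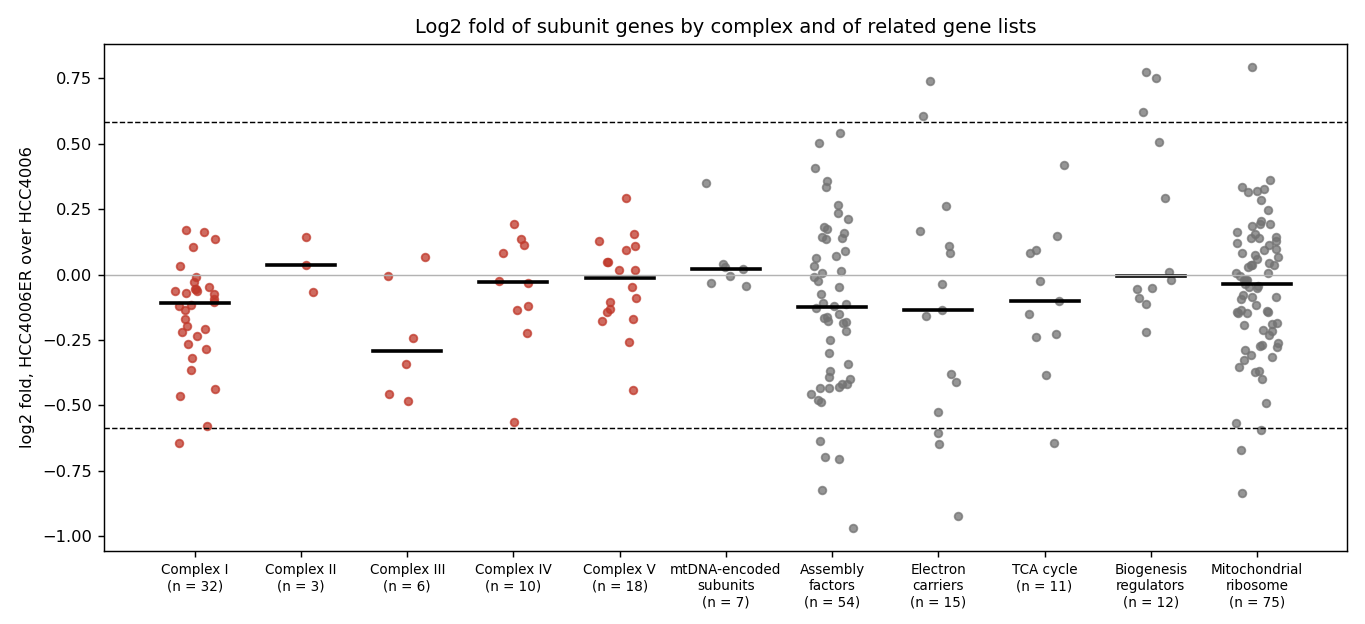
Log2 fold, HCC4006ER over HCC4006, of each gene above background, for the subunit genes by complex (red) and for related gene lists (grey). Black bars are medians and dashed lines mark 1.5-fold; the complex III median is -0.29, and the points past the upper line are COQ10A, PDSS1, GABPA, PPARGC1B, TFB1M and MRPL39.

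The genes of the mitochondrial ribosome, which translates the subunits encoded in mitochondrial DNA, were the most like group. Of 75 MRPL and MRPS genes, all above background, 1 was higher and 3 were lower past 1.5-fold, against 7.71% higher and 10.2% lower among all genes above background on both arrays. MRPL39 read 6210 on the ER array and 3582 on the parental array, a log2 fold of 0.79. The lower ones were MRPS17 (3812 on the ER array and 6799 on the parental array, -0.83), MRPS6 (2801 on the ER array and 4456 on the parental array, -0.67) and MRPL32 (5333 on the ER array and 8040 on the parental array, -0.59). The median was -0.04, against -0.03 for all genes above background on both arrays, and 42 were lower and 33 higher at any size. The range of the subunit genes, -0.64 to 0.29, was narrower, a difference that could not be tested with 1 array per cell line.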

How the data were processed

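Per probe set and array the authors deposited a single intensity, the MAS5 signal on a linear scale (the submitters' processing notes also name GCOS 1.4), for 54675 probe sets, without detection calls. The values had been scaled to a mean of 499.9 without 2% at each end. Gene symbols came from the platform annotation: 41097 probe sets had 1 symbol and were used, 1801 had several and 11777 were not listed. All 74 symbols matched RefSeq by gene ID. Each gene was read from the probe set whose mean log2 signal was highest; for 41 of the 74 it ended in _s_at or _x_at, which can match several transcripts. A fold was computed as a ratio of the deposited intensity values. Named genes were all subunits past 1.5-fold, the extremes of each complex, genes under background, genes with opposed probe sets, isoform sets, and list members past 1.5-fold or at the extremes; those of the mitochondrial ribosome past 1.5-fold were added after their values were seen. The genes and lists were chosen with earlier results of these data known. The number of arrays limits the precision, and no p-value was computed. Only the choice of probe set and the count past 1.5-fold were tested on simulated data. The planted differences were 2-fold, so recovery of smaller folds was not covered. Alternatives covered scaling, quantile normalization, probe set choice, low signals, membership and a 2-fold threshold. Python 3.11.15, numpy 2.4.6 and pandas 2.3.3 were used. Some genes are not analysed here.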

Additional observations from a re-analysis of the deposited data

How the results depend on the processing

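Over all 74 genes, 2 were higher and 3 lower past 1.5-fold. Averaging all probe sets of a gene gave 5 and 7, leaving out _x_at and _s_at probe sets gave 5 and 9 of 62, and taking whichever probe set had the largest absolute fold gave 8 and 15. The shares past 1.5-fold over all genes were not computed under these alternatives, so these counts are not a result about the subunit genes. The cause was not tested. Signals raised to the background level gave 0 and 1, as did genes above background only. A 2-fold threshold left 1 higher and 2 lower. Under the other alternatives (median scaling, quantile normalization, membership) the counts ran from 2 to 3 higher and from 2 to 4 lower. The median log2 fold ran from -0.10 to 0.06 and was above 0 only with median scaling, where the median of all genes above background on both arrays was 0.11. The medians of complexes I (-0.12 to 0.03), II (-0.21 to 0.17), IV (-0.08 to 0.10) and V (-0.05 to 0.15) took both signs across settings, and that of complex III ran from -0.30 to -0.15. Of 402 single-gene values, 350 moved by less than the SD of 0.27 between probe sets. The other 52 all came from settings that changed which probe sets were read. Median scaling shifted every value by 0.14, and raising low signals left genes above background on both arrays unaltered. Those settings could not have moved a value by 0.27, so the count of 350 is partly set by the design of the alternatives. No paired analysis was possible because each cell line had 1 array. With replicates absent, a difference under the SD between probe sets cannot be told apart from measurement error. A difference over that SD cannot be told apart from variation between arrays and cultures, which the SD leaves out.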
